A study of Mus musculus with 10 samples.

Results

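Olfactory receptor genes (Olfr) and vomeronasal receptor genes (Vmn1r and Vmn2r) were the nearest genes of 10 of the 389 distinct differentially methylated regions (DMRs) listed for F1 mouse sperm. A DMR was counted when the gene symbol of its nearest transcription start site (TSS) began with Olfr, Vmn1r or Vmn2r followed by a digit, and each position was counted once. Olfactory receptor genes accounted for 5 DMRs (Olfr1324, Olfr281, Olfr1126, Olfr272 and Olfr354) and vomeronasal receptor genes for 5 (Vmn1r58, Vmn1r65, Vmn2r50, Vmn2r53 and Vmn2r100). Sperm was taken from C3H/HeN mice (F1 males) aged 15 to 17 weeks, 5 of them born to dams given sodium arsenite in drinking water during gestation (arsenic group) and 5 born to dams given tap water (control group). Reduced representation bisulfite sequencing (RRBS) cuts DNA with MspI at CCGG, keeps short fragments and reads methylated cytosines as those that bisulfite leaves unconverted. The deposited table gives for each DMR 1 difference in methylation level between the groups, in percentage points, with 0 columns of single mice. The values of the mice, their spread, the depth and a p-value for any DMR were therefore not analysed here, and the sperm origin of the DNA could not be checked against marker genes.

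The table does not state which group was subtracted. If control minus arsenic was taken, a positive sign stands for a lower level in arsenic sperm than in control sperm, and if arsenic minus control was taken, for a higher one. A DMR needed 3 or more CpG cytosines, at least 1 differentially methylated cytosine (DMC) and a difference above 10 points, so each difference below had already passed these limits and is a description.

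Odorants are detected by olfactory receptors, G-protein-coupled receptors in the neurons of the olfactory epithelium, where each mature neuron typically expresses a single receptor gene from a single allele. Pheromones and other social cues are detected in the vomeronasal organ, by V1R receptors (Vmn1r genes) in neurons that use the G protein subunit encoded by Gnai2 and by V2R receptors (Vmn2r genes) in neurons that use the one encoded by Gnao1. An olfactory or V1R receptor is encoded by a single coding exon, whereas a V2R receptor has a long extracellular domain encoded by several exons. The genes of all these families lie in clusters of close relatives, among many pseudogenes.

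The sequences of 8 DMRs are shown because they carry what was measured, the CpG sites, and because several of them recur elsewhere in the genome. They were read 5′ to 3′ from the plus strand of GRCm38, the assembly also called mm10, with CpG sites in capitals, and were extended by 1 base where a DMR ended within a CpG. For Olfr1126 the 200 bases with the most CpG sites are given, for Olfr281 the coding part, and for the others the whole DMR. GRCm38 represents the C57BL/6J strain, and the same positions in C3H/HeN may differ from it.
Olfr1324 DMR, chrX:50397909-50397971: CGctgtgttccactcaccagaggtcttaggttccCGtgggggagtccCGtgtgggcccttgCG
Olfr281 DMR, chr15:98457083-98457244: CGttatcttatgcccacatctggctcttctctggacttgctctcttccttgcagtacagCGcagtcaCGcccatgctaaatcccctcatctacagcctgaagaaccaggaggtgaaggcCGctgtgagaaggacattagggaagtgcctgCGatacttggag
Olfr1126 DMR, chr2:87447371-87447570: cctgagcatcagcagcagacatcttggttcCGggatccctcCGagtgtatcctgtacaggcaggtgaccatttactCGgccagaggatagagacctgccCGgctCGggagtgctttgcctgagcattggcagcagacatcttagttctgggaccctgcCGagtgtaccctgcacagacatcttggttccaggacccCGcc
Olfr272 DMR, chr4:52913592-52913765: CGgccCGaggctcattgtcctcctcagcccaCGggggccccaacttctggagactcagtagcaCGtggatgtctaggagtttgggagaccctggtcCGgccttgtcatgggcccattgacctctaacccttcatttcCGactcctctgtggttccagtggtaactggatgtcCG
Vmn1r58 DMR, chr7:5429330-5429353: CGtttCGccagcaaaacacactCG
Vmn1r65 DMR, chr7:5998020-5998067: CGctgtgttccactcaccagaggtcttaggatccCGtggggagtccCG
Vmn2r50 DMR, chr7:10077319-10077341: CGgattcatcttgatctttcaCG
Vmn2r100 DMR, chr17:19485008-19485169: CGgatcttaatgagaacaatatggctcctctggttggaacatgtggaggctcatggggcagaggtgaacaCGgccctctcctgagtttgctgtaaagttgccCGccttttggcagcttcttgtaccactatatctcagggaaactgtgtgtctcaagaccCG

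Of the 10 receptor DMRs, 9 had a positive difference and 1 a negative one. That is 90% positive, against 82.8% of all 389 DMRs of the table, so the receptor genes followed the direction of the list as a whole. The negative DMR was that of Olfr354, and negative differences made up 17.2% of the list. All 5 vomeronasal and 4 of the 5 olfactory DMRs were positive. The median size of the difference, whatever its sign, was 13.3 points over the receptor DMRs and 11.8 points over all DMRs. Receptor sizes lay between 10.1 and 17.9 points, inside the 10.0 to 31.5 points of the whole list.

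**Figure D1:**
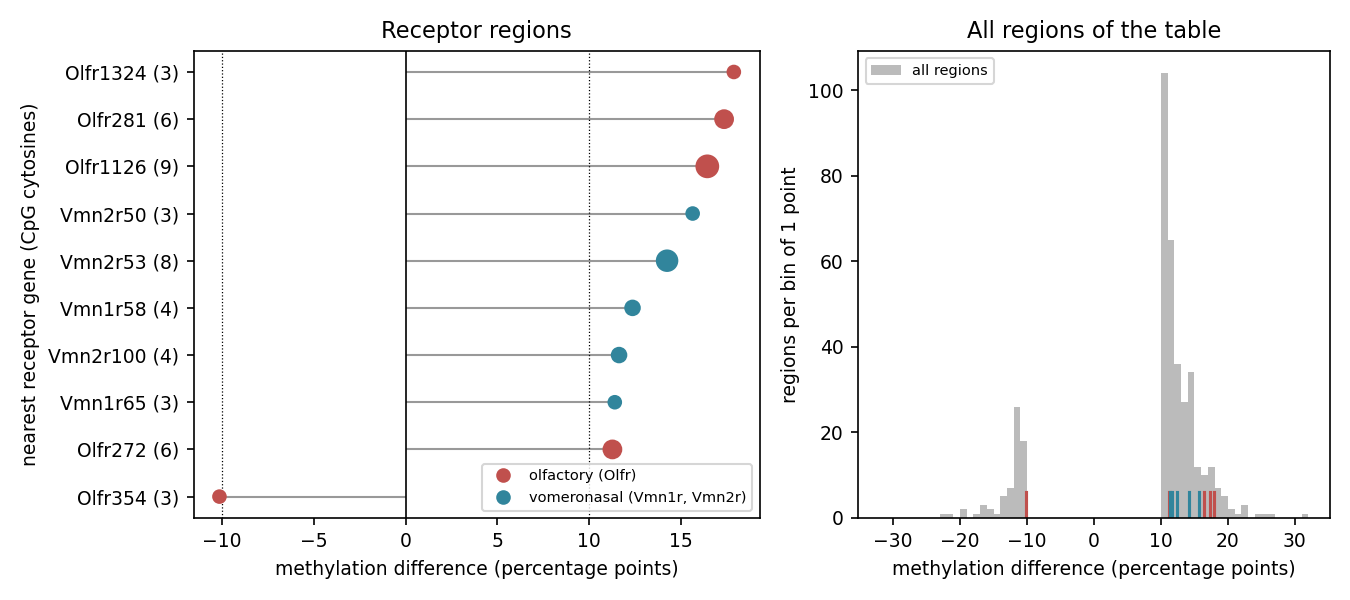
Left, the methylation difference of each receptor DMR in percentage points, with the number of CpG cytosines in parentheses and as the point size, and dotted lines at 10 points in either direction. Right, the number of DMRs per bin of 1 point over all 389 DMRs of the table, with the receptor DMRs as coloured ticks: 9 lie on the positive side between 11.3 and 17.9 points and Olfr354 at -10.1 points.

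The plot of differences also shows that 3 of the 4 largest receptor differences belonged to olfactory receptor genes. Olfr1324 had 17.9 points and ranked 27 by size among the 389 DMRs, Olfr281 had 17.4 points and ranked 31, and Olfr1126 had 16.4 points and ranked 48. Among vomeronasal genes Vmn2r50 led with 15.6 points at rank 57, followed by Vmn2r53 with 14.2 points at rank 92. Vmn1r58 with 12.4, Vmn2r100 with 11.6, Vmn1r65 with 11.4 and Olfr272 with 11.3 points lay near the middle of the list. Olfr354, with -10.1 points, ranked 363 by size and lay just past the limit of the list. With no values per mouse, neighbours in this order could not be separated from each other by an error.

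Most receptor DMRs rested on few cytosines. The median was 4 CpG cytosines in receptor DMRs and 6 in all DMRs, and 4 receptor DMRs had the minimum of 3, which is 40%, against 21.3% of the list. A single DMC carried 9 of the 10 receptor DMRs, against 69.7% of all DMRs. Only the DMR of Olfr272, among the receptor DMRs, had 2 DMCs, of 6 CpG cytosines. Olfr1126 had the most CpG cytosines of them, 9 over 466 bp, and Vmn2r53 had 8 over 239 bp. Olfr281 and Olfr272 had 6 each, over 177 and 174 bp. The shortest receptor DMRs were those of Vmn2r50 with 3 cytosines in 22 bp, Vmn1r58 with 4 in 24 bp, Vmn1r65 with 3 in 47 bp and Olfr1324 with 3 in 62 bp. Vmn2r100 had 4 cytosines over 162 bp and Olfr354 had 3 over 105 bp. These numbers count cytosines on either strand: they exceeded the CpG sites of the reference in 2 receptor DMRs and in 113 of all DMRs. In base composition the receptor DMRs were close to the list, with a median GC content of 54.2% against 55.6% and 4.1 CpG sites per 100 bp against 4.58.

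MspI cuts bounded several of the receptor DMRs. Both edges lay at a cut for Olfr354, Olfr1126, Olfr272, Vmn2r53 and Vmn2r100, and 1 edge for Olfr281, so that 6 of the 10 touched a cut, against 300 of the 389 DMRs. The DMRs of Vmn2r50, Vmn1r58, Vmn1r65 and Olfr1324 lay inside 1 piece between neighbouring cuts, of 78, 118, 156 and 157 bp. The Olfr1126 DMR reached across 464 bp between its outer cuts and held 2 further CCGG sites.

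All 10 receptor DMRs lay inside receptor gene clusters. A cluster was defined as 2 or more receptor genes or pseudogenes with gaps of at most 1000000 bp. This gave 69 clusters holding 2031 of the 2073 annotated receptor genes and pseudogenes, with a median of 9 of them each. The 10 DMRs fell into 7 clusters, and no DMR with another nearest gene lay inside any of the 69. DMRs inside clusters were thus 2.57% of the 389, while the clusters hold 2.59% of the bases and 2.12% of the CCGG sites. The 10 were chosen by a receptor gene as the nearest, and most receptor genes lie in clusters. Their place inside clusters is therefore no separate result. A single cluster at the proximal end of chromosome 7 held 4 of the 10. It spans positions 5146490 to 13244458 and 8098 kb, with 123 genes and pseudogenes, 72 of them protein-coding. Of the 123, 66 are Vmn1r, 48 Vmn2r and 9 Olfr. The Vmn1r58 and Vmn1r65 DMRs lay at 3.49% and 10.5% of its length, the Vmn2r50 DMR at 60.9% and the Vmn2r53 DMR at 91.6%, so they were spread over the cluster and not adjacent. The 4 differences there were all positive, from 11.4 to 15.6 points.

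The map of neighbouring genes shows how uneven the surroundings were. Within 100 kb there were 10 protein-coding receptor genes and 1 pseudogene around the Olfr354 DMR, 8 and 2 around that of Olfr1126, 4 and 3 around Olfr281, and 4 and 2 around Olfr272. Around Olfr1324 there was 1 protein-coding receptor gene. Among the vomeronasal DMRs, Vmn2r50 had 4 protein-coding receptor genes within 100 kb and no pseudogene, Vmn1r58, Vmn2r53 and Vmn2r100 had 3 and 1 pseudogene each, and Vmn1r65 had 1 and 2 pseudogenes. Olfr1126 belongs to the largest of the 69 clusters, with 293 Olfr genes and pseudogenes over 5071 kb of chromosome 2. Olfr354 lies in another cluster of chromosome 2 with 37 Olfr genes and pseudogenes. The clusters of Olfr281 on chromosome 15, Olfr272 on chromosome 4 and Olfr1324 on chromosome X were small. They held 12, 6 and 5 Olfr genes, any pseudogenes included. The Vmn2r100 cluster on chromosome 17 held 62 genes and pseudogenes, 36 Vmn2r and 26 Vmn1r. With gaps of at most 200000 bp instead, the Olfr1324 DMR was no longer inside a cluster.

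Receptor DMRs lay closer to a listed TSS than DMRs in general, by the median. None of them lay in the promoter of its listed gene, taken as 250 bases before to 50 bases after the RefSeq start. The median distance to the listed TSS was 14564 bp over the receptor DMRs and 35530 bp over all 389, and 2 of the 10 were within 2000 bp, against 31 of the 389, or 7.97%. Both of these, Olfr281 and Olfr272, are olfactory receptor genes. Receptor genes are densely packed, and the part of that packing in the shorter distance was not tested. The listed TSS also needs care: in 7 of the 10 it equals the start of the coding sequence in GENCODE, whose transcripts begin up to 7386 bp farther upstream. By GENCODE starts of protein-coding genes, the same 10 receptor genes were nearest. The farthest upstream GENCODE start lay 4584 bp from the DMR for Olfr281 and 5500 bp for Olfr272, but the closest GENCODE start of the same genes lay 887 and 1884 bp away, still within 2000 bp.

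Olfr281 was the only receptor gene with a DMR in its coding exon. The DMR, with a difference of 17.4 points, lay on chromosome 15 from 98457084 to 98457260, 772 bp downstream of the listed TSS. Its coding part covers bases 773 to 933 of the 933 coding bases, hence codons 258 to 311, the last before the stop codon, and 16 further bases follow, beginning with that stop codon. The coding sequence of Olfr281 has 42 CpG sites, of which 5 lie in the DMR. On the lower side the next receptor gene was Olfr282, 18687 bp away, and on the upper side the pseudogene Olfr240-ps1, 14159 bp away. No other locus matched the DMR at 90% identity over 80% of its length. Below that threshold its longest alignments were in the coding paralogs of the same cluster, with 89.3% identity over 131 bp in Olfr282, 80.2% in Olfr283 and 76.9% in Olfr284. None of these 3 genes was the nearest gene of a DMR in the table.

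Olfr272 had a difference of 11.3 points on chromosome 4 from 52913592 to 52913765, 1800 bp upstream of its listed TSS and within an intron of its GENCODE transcripts. None of its bases was repeat-masked, and no other locus matched it at 90% identity. The nearest gene on the other side was the pseudogene Olfr271-ps1, 21665 bp away. Its cluster held 4 protein-coding genes and 2 pseudogenes, all within 100 kb of the DMR.

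Olfr1126 had a difference of 16.4 points on chromosome 2 from 87447261 to 87447726. This was an intergenic DMR 9441 bp upstream of its listed TSS and 11816 bp from Olfr1124, and 92.9% of its bases were repeat-masked. Olfr1324 had 17.9 points on chromosome X from 50397909 to 50397970, also intergenic, at 28524 bp downstream of its listed TSS. The gene before it, Olfr1323, lay 387674 bp away, and 95.2% of its bases were repeat-masked.

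Olfr354, the negative DMR, lay on chromosome 2 from 36911723 to 36911827, with -10.1 points. It was 4775 bp downstream of the listed TSS, in the 3′ untranslated region of Olfr354 as annotated by GENCODE, and 15353 bp before Olfr355. All of its bases were repeat-masked. The larger GENCODE model placed it within the transcript, while the RefSeq gene ended 3822 bp before it.

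Neither V1R DMR overlapped a gene. That of Vmn1r58, with 12.4 points on chromosome 7 from 5429330 to 5429353, lay 16185 bp upstream of the TSS of Vmn1r58 but only 1055 bp from the pseudogene Vmn1r-ps39, and on its other side Vmn1r59 was 24474 bp away. The DMR of Vmn1r65, with 11.4 points from 5998021 to 5998067, lay 12943 bp downstream of the TSS, between Vmn1r-ps46 at 30802 bp and Vmn1r65 itself, whose end was 9683 bp away. Both DMRs were fully repeat-masked.

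The V2R DMRs lay farther from their listed TSSs than any olfactory DMR except that of Olfr1324. For Vmn2r50 the DMR, with 15.6 points on chromosome 7 from 10077319 to 10077340, was 24141 bp upstream of the TSS, while the body of Vmn2r51 began 9858 bp away, so the gene body nearest to it was not the gene listed. For Vmn2r53, with 14.2 points from 12566355 to 12566593, it was 39951 bp downstream of the TSS, 14877 bp past the end of the RefSeq gene and in a 3′ untranslated region of the longer GENCODE model. For Vmn2r100, with 11.6 points on chromosome 17 from 19485008 to 19485169, it was 19642 bp upstream of the TSS, inside an intron of the long noncoding RNA gene 4930549P19Rik. The pseudogene Vmn2r-ps121 lay 30433 bp to its other side. Repeat-masked sequence made up all of the Vmn2r50 DMR, 97.9% of that of Vmn2r53 and 13.0% of that of Vmn2r100.

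Repeated sequence was common among the receptor DMRs. Over 50% of the bases were repeat-masked in 7 of the 10, which is 70.0%, against 27.8% of all DMRs. The sequence was multi-copy in the same number, 7 of 10, against 22.4% of all DMRs. Multi-copy here means a median of 2 or more exact matches of the 30-base stretches of a DMR in GRCm38, on both strands, with DMRs under 100 bp widened to 100 bp. The median was 6942.5 matches for Olfr354, 2265 for Vmn1r65, 21 for Olfr1324, 8 for Olfr1126, 5 for Vmn1r58, 4 for Vmn2r50 and 3.5 for Vmn2r53. Olfr281, Olfr272 and Vmn2r100 had 1 match, their own. These 3 single-copy DMRs were all positive, with 17.4, 11.3 and 11.6 points, and the 7 multi-copy ones were 6 positive and 1 negative, with a median size of 14.2 points. With stretches of 50 bases, 3 of the 10 remained multi-copy: Olfr354, Vmn1r65 and Vmn2r50. Whether reads from other copies entered the values of the multi-copy DMRs was not tested.

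**Figure D2:**
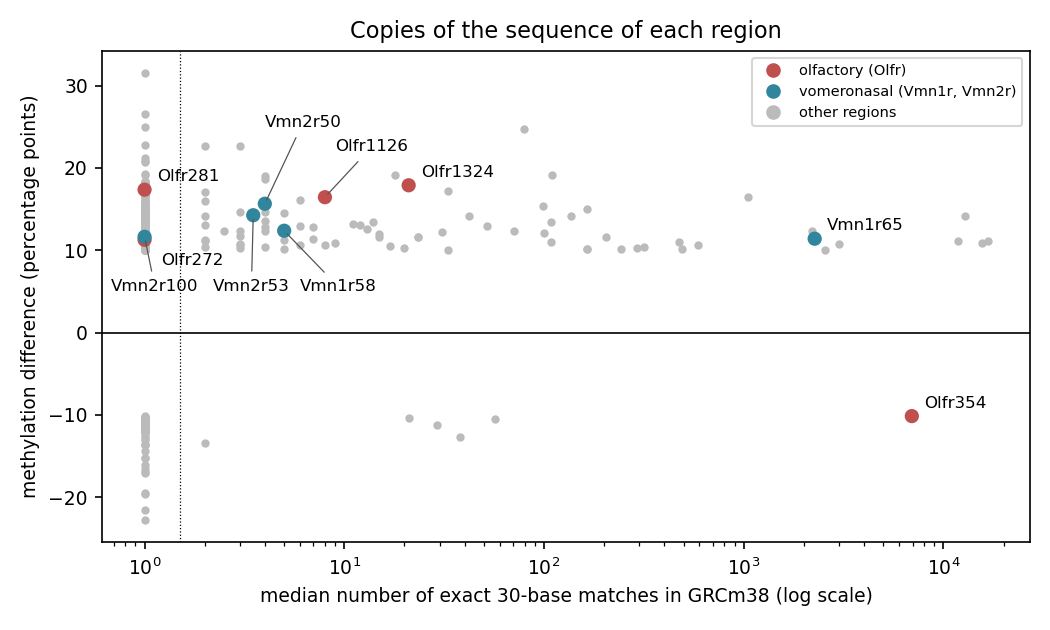
Methylation difference in percentage points against the median number of exact 30-base matches of each DMR in GRCm38 (log scale), with the multi-copy DMRs to the right of the dotted line. Among the receptor DMRs (coloured), 3 are single-copy and 7 multi-copy, and the negative DMR of Olfr354 has the most matches, 6942.5.

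The plot against copy number places Olfr354 at one end of the receptor DMRs in both respects. By alignment at 90% identity over 80% of the length, the sequence of the Olfr354 DMR was found at 52904 other loci on all 21 chromosomes. The Vmn1r65 and Olfr1324 DMRs, both widened to 100 bp for this search, were found at 9730 and 9205 other loci. Most of these loci were not near receptor genes: 4.32%, 4.37% and 4.33% of them lay in a receptor cluster, while such clusters make up 2.59% of the bases of the genome. Olfr1126 had 155 other loci, 14.2% of them in receptor clusters and 0 in its own. The widened Vmn2r50 DMR had 15 other loci, of 94.0% to 99.0% identity, of which 2 were in receptor clusters, 1 of them 3175 bp from Olfr765. The widened Vmn1r58 DMR had 3, and 1 of these, with 94.0% identity, lay in its own cluster, 1017 bp from the pseudogene Vmn1r-ps40. Thus a pair of near-identical stretches accompanied the pseudogenes Vmn1r-ps39 and Vmn1r-ps40 at 1055 and 1017 bp. Vmn2r100 had 1 other locus of 92.5% identity on chromosome 15, and Vmn2r53, Olfr281 and Olfr272 had 0.

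Some of the receptor DMRs shared sequence with other DMRs of the table. Each of the 10 receptor DMRs was aligned to all 389 DMRs (blastn, E value up to 0.001). This linked 5 receptor DMRs to 42 other DMRs, or 11.1% of the DMRs without a receptor gene. Of these 42, 41 were positive, against 82.6% of all DMRs without a receptor gene. The 42 were picked by alignment, mostly to repeat-masked sequence, whereas the 82.6% covers single-copy DMRs too. The share of positive differences among other DMRs in repeated sequence was not analysed, so no conclusion is drawn from the 41 of 42. How often DMRs without a receptor gene align with one another was not analysed either. The DMRs of Vmn1r58, Vmn2r50, Olfr281, Olfr272 and Vmn2r100 aligned with none. Olfr1324 aligned with 19 DMRs, Vmn1r65 with 18 and Olfr1126 with 11, and all of these had positive differences, as had the receptor DMRs themselves. Vmn2r53 aligned with 12 DMRs, of which 11 were positive, and they included the largest difference of the table, 31.5 points, with 89.1% identity over 55 bp. Olfr354 was the exception: it was negative, while the 7 DMRs that aligned with it were all positive, between 10.0 and 16.0 points. Of these, the DMR nearest to Grxcr1 on chromosome 5 shared 95.3% identity over 106 bp with the Olfr354 DMR and had a difference of 10.2 points, and that nearest to Ndst4 on chromosome 3 shared 91.4% over 105 bp and had 16.0 points.

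**Figure D3:**
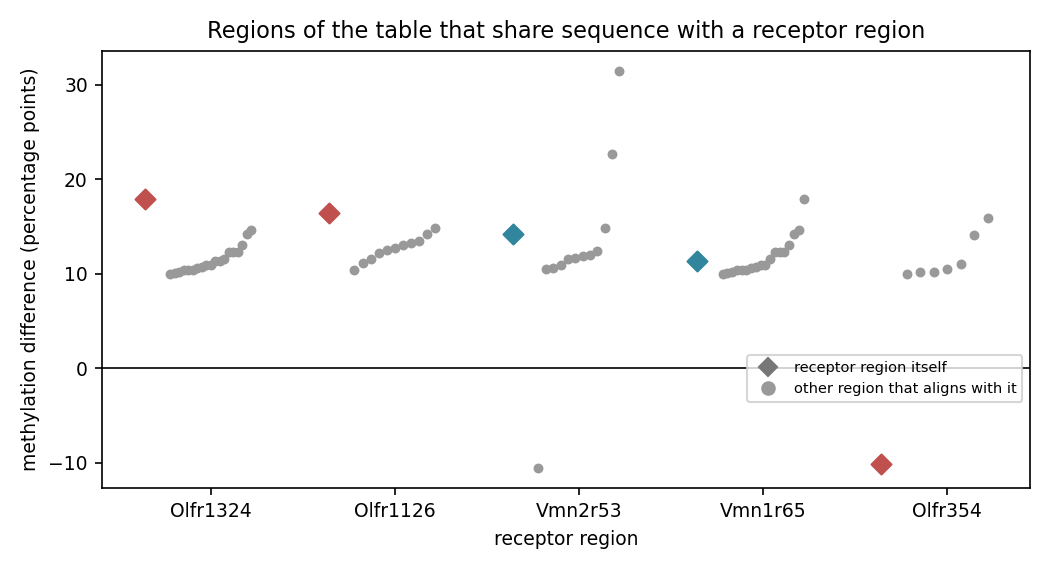
Methylation difference in percentage points of each receptor DMR that aligned with others (diamond) and of the DMRs that aligned with it (gray points, 1 per DMR). The gray points lie above 0 for Olfr1324, Olfr1126, Vmn1r65 and Olfr354 and above 0 in 11 of 12 for Vmn2r53, while the diamond of Olfr354 lies at -10.1 points.

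The plot of shared sequence does not name its gray points, but Vmn1r65 and Olfr1324 had 17 of these other DMRs in common. These receptor DMRs also aligned with each other, with 95.8% identity over 48 bp, although they lie on chromosomes 7 and X and near genes of different receptor families. Their longest common exact stretch, printed here because it ties these DMRs together, has 30 bases and opens both sequences given above.
Stretch common to the Olfr1324 and Vmn1r65 DMRs: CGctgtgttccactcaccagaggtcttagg
It occurs 3550 times in GRCm38. It was present in 5 DMRs of the table, 1.29% of 389, all positive with 11 to 17.9 points, against 82.8% positive over all DMRs. These 5 include the Olfr1324 and Vmn1r65 DMRs, which hold the stretch because it was taken from them. MspI would give 272798 fragments of 40 to 220 bp with 3 or more CpG sites from GRCm38. Of these fragments, 2786 or 1.02% held the stretch. The share among DMRs counts those that defined the stretch, so no conclusion is drawn from setting it beside this one.

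The receptor genes were not a large part of the list. DMRs with a receptor gene as the nearest made up 2.57% of 389 (95% Clopper-Pearson interval 1.24% to 4.68%, for the counting of DMRs only). The interval treats the DMRs as independent, although 4 of the 10 lie in the same cluster. Receptor genes make up 5.63% of the 26180 genes with a RefSeq start. Sequence was assigned to the nearest RefSeq start, and by that rule 11 DMRs, or 2.83% (interval 1.42% to 5.0%), were nearest to a receptor gene. The added DMR, with 14.4 points, lay on chromosome 3 from 97324807 to 97324976, nearest to Olfr1402 but listed for Mir378c, and outside the receptor clusters. By the same rule the nearest start was that of a receptor gene for 2.04% of the bases and 1.5% of the CCGG sites. The share was 1.42% for MspI fragments, 1.41% for CpG sites and 1.19% for the CpG sites in these fragments. Counted instead by position inside a receptor cluster, the shares were 2.57% of the DMRs, 2.59% of the bases, 2.14% of the MspI fragments and 2.12% of the CCGG sites. No test of any of these differences was made. Counted by genes, 10 of 1475 receptor genes were nearest to a DMR, or 0.678%, against 375 symbols listed for all DMRs, which equals 1.43% of 26180. The CpG sites that reached the coverage needed in all mice were not analysed here, so the share of receptor genes among them is unknown.

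**Figure D4:**
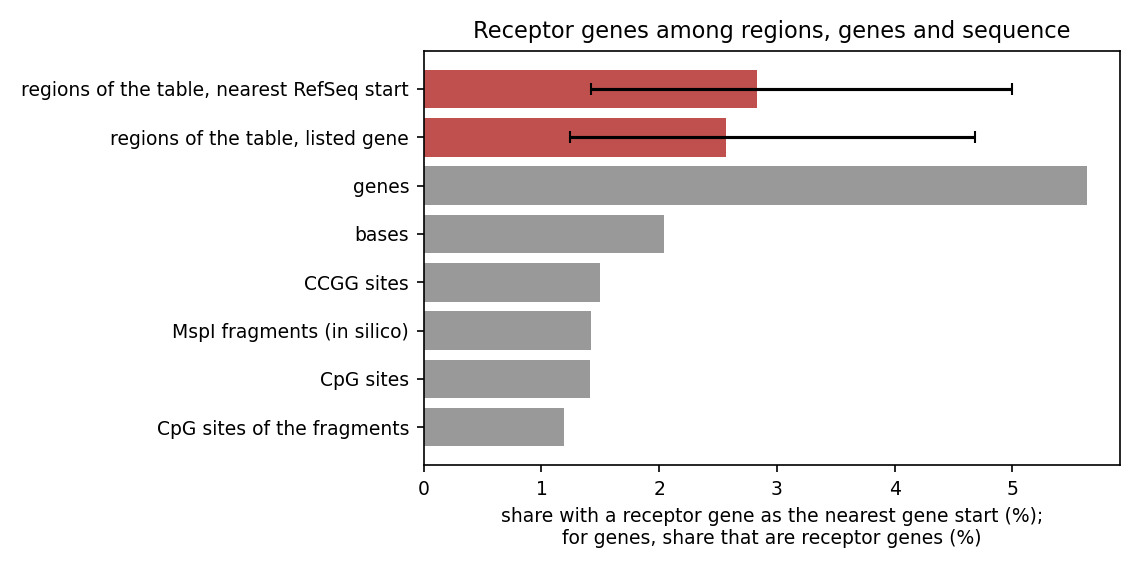
Share of DMRs by nearest RefSeq start and by listed gene (red, with 95% Clopper-Pearson intervals) and of bases, CCGG sites, MspI fragments and CpG sites of GRCm38 (gray) whose nearest gene start is that of a receptor gene, in percent, and for genes the share that are receptor genes. The DMRs, at 2.83% and 2.57%, lie between the share of genes, 5.63%, and the shares of sequence, from 1.19% to 2.04%.

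Beside the plot of shares, the content of the receptor clusters was counted. Inside them there were 6351 CpG sites and 505 CCGG sites per Mb, against 8310 and 619 elsewhere, and 85.4 MspI fragments per Mb, against 104. Receptor promoters, taken from RefSeq on GRCm38 as 250 bases before to 50 bases after the gene start, had a median of 1 CpG site, against 7 for all genes. In 7 of the 10 receptor genes nearest to a DMR this start is the coding start in GENCODE. Such a window can therefore lie downstream of the true promoter, which limits these comparisons. A CCGG site, searched as these letters, was found in 5.83% of 1270 receptor promoters, against 52.8% of all promoters. All 10 receptor genes nearest to a DMR were matched, and 2 of their promoters held CCGG, those of Olfr281 with 6 CpG sites and of Vmn2r53 with 4, whereas those of Olfr354 and Vmn2r100 had no CpG site. No receptor DMR lay in such a window, and windows around the upstream GENCODE starts were not searched.

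Genes that act with these receptors were counted from a list of such genes. Of 33 genes for receptor signalling, trafficking and the identity of olfactory neurons, 2 were listed as nearest to a DMR, or 6.06%, against 1.43% of all genes, and of 48 genes of the Taar, Fpr, Ms4a and H2-M10 families, which include further chemoreceptors, 0 were. Together this is 2 of 81, or 2.47%. The olfactory G protein gene Gnal, the adenylyl cyclase gene Adcy3, the channel genes Cnga2 and Trpc2, the G protein genes Gnai2 and Gnao1 and the regulator gene Lhx2 were among those without a DMR. Ebf2, a transcription factor of the family that acts in olfactory neurons, had a DMR of -11.5 points at 54275 bp from its TSS. Lbr, the lamin B receptor that tethers heterochromatin to the nuclear envelope, was listed as nearest to 2 DMRs of opposite sign. The DMR of -12 points, at 20883 bp, lay in a coding exon of Lbr. That of 12.9 points, at 59731 bp, lay in an intron of another gene, Dnah14. None of the 3 was within 20000 bp of a TSS.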

How the data were processed

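Sperm DNA of 10 F1 mice (5 arsenic, 5 control) was measured by RRBS, in the replication experiment of the study and not its main one. For it the paper describes sperm pushed from the cauda epididymis with needles into PBS and spun down, without the swim-up of the main experiment. In the study's methods and the submitters' processing notes, Trim Galore trimmed the reads, Bismark placed them on mm10, and CpGs covered 10 or more times in every sample entered methylKit for DMCs and eDMR for DMRs. The processing notes also name bedtools 2.25.0, which is not the version that the study's methods give. The authors' deposited table gives for each DMR a methylation difference in percentage points, counts of CpG cytosines and DMCs, and its nearest TSS. It holds neither a p-value nor a coverage, so no test was made.

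Here 465 rows were reduced to 389 DMRs by position. Listed starts count from 0, as the next base was a CpG cytosine in 389 of 389 DMRs, and positions are given from 1. Clusters came from RefSeq, gene context from GENCODE M21, and copies from exact matches and blastn 2.17.0 on GRCm38. Python 3.11.15, numpy 2.4.6, pandas 2.3.3, numba 0.67.0 and matplotlib 3.10.9 were used, and the match counter, the clustering and the nearest-start search were tested on simulated data. Named were the receptor genes listed as nearest, their neighbours, overlapped genes and listed genes of a signalling list. Other genes, namely those of the shared DMRs, of the alignments of Olfr281, Vmn2r50 and Vmn1r58, and those of the DMR nearest to Olfr1402, were picked with their values in view. The receptor genes and the lists were chosen with earlier results of these data known. The alternatives tried were stricter limits for a DMR and other rules for genes, copies and clusters.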

Additional observations from a re-analysis of the deposited data

How the results depend on the processing

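The number of receptor DMRs, 10, depended on the limits for a DMR. It was 4 with differences of 15 points or more, 4 with 5 or more CpG cytosines and 1 with 2 or more DMCs, and the positive ones among them were again 4, 4 and 1. In single-copy sequence only, an alternative chosen after seeing the data, 3 were left and 3 were positive. The number in multi-copy sequence was 7, or 3 with exact matches of 50 bases. Alignment at 90% identity also gave 7 but with Vmn2r100 in place of Vmn2r53, and a limit of 5 copies gave 5. The number stayed at 10 by cluster, by GENCODE starts, with further receptor stems and over rows, and was 7 with the TSS within 20000 bp. With 1 DMR per cluster 7 DMRs were left, 6 of them positive, and by the nearest RefSeq start there were 11, 10 of them positive, both also chosen after seeing the data. Inside clusters lay 9 with gaps of at most 200000 bp and 8 with 10 or more genes. No paired analysis was possible because the table holds no values of single mice, and for the same reason no mouse could be left out.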
